A study of Mesocricetus auratus and Mus musculus with 214 samples.

Results

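The core of the pre-mRNA splicing machinery was followed through oogenesis, early embryogenesis and spermatogenesis of the golden hamster, in wild-type (WT) animals and in animals lacking a PIWI gene. The members were the genes whose golden hamster symbol begins with Snrp, Sf3a, Sf3b, Srsf, U2af, Prpf or, followed by a number, Lsm. This rule found 61 of the 36133 genes in the expression tables. They fall into 12 Sm and other snRNP proteins, 9 SF3a and SF3b subunits, 3 U2AF genes, 11 SR proteins, 13 PRP factors and 13 LSm proteins.

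Introns are removed by small nuclear ribonucleoproteins (snRNPs), each made of a small nuclear RNA and its proteins. The U1, U2, U4 and U5 RNAs carry a ring of Sm proteins (Snrpb or its paralog Snrpn, Snrpd1, Snrpd2, Snrpd3, Snrpe, Snrpf and Snrpg), whereas U6 carries the ring Lsm2 to Lsm8. A related ring with Lsm1 in place of Lsm8 acts in the cytoplasm in mRNA decapping. U2AF recognizes the 3' splice site, SF3a and SF3b hold the U2 snRNP on the branch point, SR proteins bind exons and recruit the machinery, and PRP factors such as Prpf8, the scaffold of the catalytic center, assemble and remodel it. Lsm10 and Lsm11 belong to the U7 snRNP, which processes replication-dependent histone mRNAs and not introns, and Lsm12, Lsm14a and Lsm14b carry an LSm-type domain but are not ring subunits of the spliceosome. Full-grown oocytes and late spermatids are transcriptionally silent, and the zygotic genome is activated in the cleaving embryo.

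The study profiled mRNA of LVG golden hamsters by Smart-seq2, in 43 oocyte and embryo, 30 sorted-cell, 14 stage and 16 whole-testis libraries. Oocytes and embryos came from WT and Piwil3-/- females, with germinal vesicle (GV) oocytes (3 and 3 libraries), ovulated metaphase II (MII) oocytes (4 and 4), and embryos at 11 (5 and 5), 34 (4 and 3) and 54 h (2 and 2) after egg activation. Both kinds of female were mated with WT males, so the embryos of Piwil3-/- females are called maternal Piwil3-/- embryos. A further set of MII oocytes held WT (3), Piwil2-/- (3) and Piwil4-/- (2) libraries. Whole testes, 2 libraries each, were from WT, Piwil2-/- and Piwil4-/- males at 3 days post-partum (d.p.p.) and from WT, Piwil1-/-, Piwil2-/-, Piwil3-/- and Piwil4-/- adults. Cells sorted by Hoechst staining from adult WT (4 libraries each) and Piwil1-/- (3, 3, 4 and 4) testes were labelled SPG/PL (spermatogonia and preleptotene), LZ (leptotene and zygotene), P (pachytene) and D (diplotene). A WT series of 7 sorted stages, 2 libraries each, ran from spermatogonia to mature sperm. All mutants carry CRISPR-Cas9 frameshift alleles in the germline, and of the embryos' parents only the mother was mutant. Embryos were collected by hour and not by cell number, so genotype and developmental stage at a given hour cannot be told apart. Piwil2-/- and Piwil4-/- adult testes hold few germ cells, so cell composition and RNA per cell cannot be told apart in whole testes. The labels do not say which libraries come from separate animals, and p-values measure the spread between these libraries only.

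Oocyte, embryo and sorted-cell values are fragments per kilobase per 10000 reads of ERCC spike-in RNA, called spike-in units below; whole-testis values are per 1000 ERCC reads, and the 7-stage series is in FPKM. In the oocyte and embryo table the values of a library summed to between 22320.7 and 2.71e+06 spike-in units, with 5667 to 16169 genes over 0, and 1 read in a gene of 1 kb was worth 0.0102 to 1.23 units. The targeted gene was lower in mutants where WT expressed it, except for Piwil2 in MII oocytes and Piwil1 in sorted LZ cells, where genotypes overlapped. In MII oocytes Piwil2 was 0.242 to 2.4 units in Piwil2-/- and 0.67 to 1.94 in WT libraries. Piwil3 was 15.8 to 17.1 units in Piwil3-/- and 43.6 to 54.1 in WT GV oocytes, and it was listed at 0 in every WT library at 34 and 54 h, so it checks no label there. Piwil1 was 38.8 to 59.6 in Piwil1-/- and 230 to 327 in WT sorted P cells. Among sorted LZ cells Piwil1 ranged from 1.41 to 77.7 in WT and from 0.75 to 1.82 in Piwil1-/- libraries, so it does not check those labels. The counts from SPG/PL to LZ cells and for Piwil1-/- LZ cells are also given without some of the WT LZ libraries. The results from LZ to P cells are given with all of them. WT embryos at 11 h include 2 libraries whose titles also carry 8PEA.

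Differences are log2 differences of value + 1, which understate changes of low genes, fitted with limma in 1 model for all groups of a table. A gene was called at a Benjamini-Hochberg adjusted p under 0.05 over all genes tested, and lower or higher always refers to the spike-in scale unless rescaled values are named. Rescaled values have every library set to the same total. Libraries of 2 groups that do not overlap are common where groups are small, at 2.23% to 93.6% of all genes tested in a comparison. The members named for the largest changes were picked among called genes that do not overlap. Their lack of overlap therefore adds no support to the call. Spike-in values follow the mRNA captured from a sample, and rescaled values follow a gene's share of it. The amount of a transcript and how well it was captured cannot be told apart. In samples of many cells, fewer cells of a type and less RNA per cell cannot be told apart.

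The 61 members together made up a share of the transcriptome that differed between stages. They were 0.691% to 0.803% of all values in WT GV oocytes, 0.402% to 0.453% in the WT MII oocytes of both sets and 0.376% to 0.435% in WT embryos at 11 h. The share was 1.21% to 2.23% in WT embryos at 34 h but 0.403% to 0.436% in maternal Piwil3-/- embryos of that age. At 54 h it was 1.42% to 1.46% in WT and 1.93% to 1.98% in maternal Piwil3-/- embryos. The genotypes therefore did not overlap at either age, with WT higher at 34 h and maternal Piwil3-/- higher at 54 h.

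**Figure D1:**
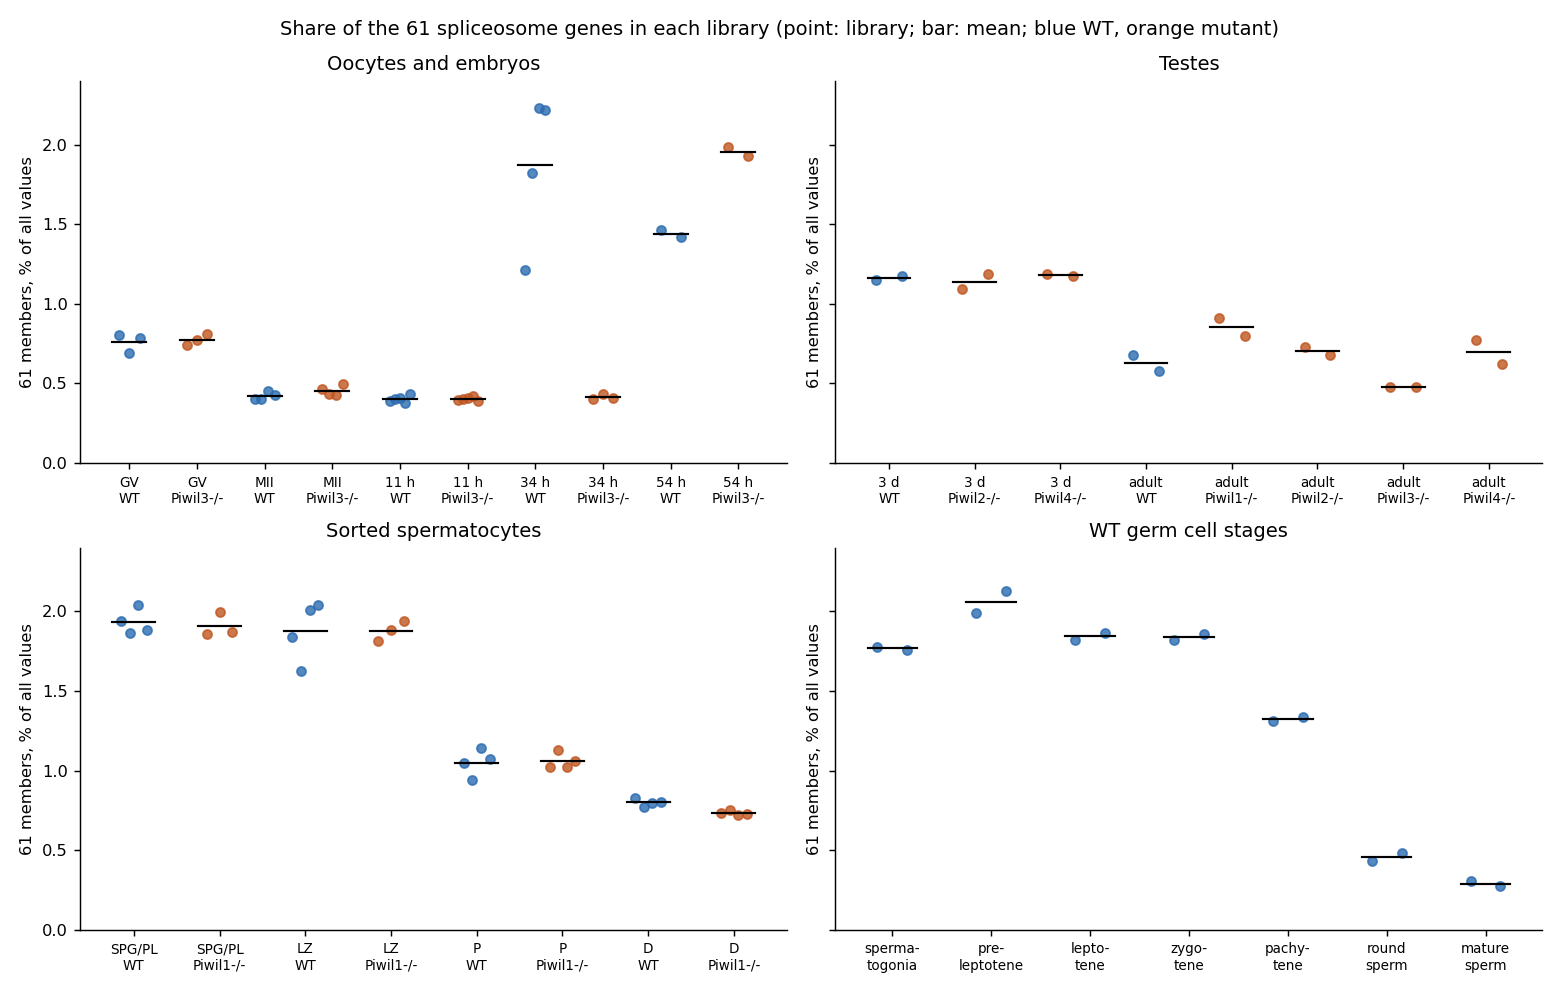
Summed values of the 61 splicing genes as a percentage of all values of a library, in 4 panels for oocytes and embryos, whole testes, sorted cells and the 7-stage series. Each point is a library. The 3 maternal Piwil3-/- libraries at 34 h sit at 0.403% to 0.436%, close to the embryos at 11 h, and the WT libraries of that age at 1.21% to 2.23%.

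The members were abundant in GV oocytes and lower in MII oocytes, as were nearly all transcripts. Between WT GV and MII oocytes 52 of 60 tested members were lower and 0 higher, beside 90.9% lower and 0.0746% higher among all 12066 genes tested. The median log2 difference was -3.27 for the members and -2.68 for all genes, and on rescaled values 18 were lower and 9 higher of 56 members, beside 38.6% and 9.59% of all genes. Lsm3 (gene ID 121136919), a subunit of the U6 ring, was 658, 490 and 603 units in GV oocytes and 0.599, 0, 5.58 and 1.02 in MII oocytes. U2af1 (101828101), the small U2AF subunit that reads the AG of the 3' splice site, was 633, 634 and 489 in GV and 4.38, 1.25, 7.15 and 2.23 in MII oocytes. Sf3b5 (101841948), a small SF3b subunit, was 770, 584 and 693 in GV and 7.55, 8.29, 0.733 and 7.48 in MII oocytes. For all 3 genes every MII library lay far below every GV library, with log2 differences of -8.08, -7.11 and -6.86. The 2 groups did not overlap for 89.2% of all genes tested. Prpf8 (101827309) was 5.43 to 11.8 units in GV oocytes and 0.103 to 1.56 in MII oocytes. The most abundant members per kilobase were Lsm10 and Snrpc, a U1 protein, in WT GV oocytes (means 2124 and 1980 units) and the U2 proteins Snrpa1 and Snrpb2 in WT MII oocytes (256 and 244).

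From MII oocytes to embryos at 11 h 7 of 54 members were higher and 4 lower in WT, beside 17.4% higher and 6.61% lower among all genes tested. Lsm10 (101830225) was higher, from 41.7 to 94.1 units in MII oocytes to 102.7 to 179 at 11 h (log2 difference 1.33, SE 0.25, adjusted p = 0.00025). Srsf7, an SR protein, was lower (log2 difference -2.13, adjusted p = 0.0018), as was Lsm5 (log2 difference -1.12, adjusted p = 0.0065). Snrpa1 was lower as well (-1.36, adjusted p = 0.029) and was not called on rescaled values (adjusted p = 0.39). On rescaled values 1 of 53 members was higher and 2 were lower, beside 11.5% and 1.49% of all genes. The 11 called members were 3 with a pseudocount of 0.1, 6 without WT replicate 3 at 11 h or without WT MII replicate 4, and 7 without WT replicate 1 or 2 at 11 h.

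Between 11 and 34 h most members fell in WT embryos while a small group rose. Of 56 tested, 41 were lower and 9 higher, beside 86.4% lower and 6.33% higher among all genes tested, with medians of -2.40 for the members and -2.96 for all genes. On rescaled values 19 of 58 members were lower and 23 higher, beside 60.6% and 20.8% of all genes, with medians of 0.14 and -1.86. The 9 members that rose were the Sm proteins Snrpb, Snrpd2 and Snrpd3, the U1 protein Snrpc, the SF3b subunits Sf3b5 and Sf3b6, U2af1, the SR protein Srsf5, and Lsm12.

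Sf3b5 was 0 to 4.52 units in the 5 WT libraries at 11 h and 37.2, 164, 171 and 97.1 in the 4 at 34 h (log2 difference 5.09, SE 0.54, adjusted p = 2.5e-10). Snrpd2 (101833976) was 0.286 to 7.61 and then 33.8, 51, 85.9 and 96.7 (4.48, adjusted p = 1.1e-08). Lsm12 (110341539) was 0 to 0.912 and then 7.3, 6.61, 18.5 and 6.93 (3.03, adjusted p = 1.7e-09). The 2 ages did not overlap for any of these 3 genes, by which they were picked, nor for 83% of all genes tested. In the other direction Lsm10 was 102.7 to 179 units at 11 h and 0.0171, 0.0292, 1.1 and 0.0108 at 34 h, a log2 difference of -6.93. Snrpn (101833213), the Snrpb paralog known for expression in neurons and for parental imprinting in mouse and human, was 24.8 to 49.9 and then 0.23, 0, 0.0175 and 0 (log2 difference -5.30). Srsf6, an SR protein, had a log2 difference of -5.34. WT replicate 1 at 34 h had the lowest summed member values of its group, 328.8 units beside up to 1232 in the others.

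Before 34 h the test did not separate Piwil3-/- from WT for any member. limma called 0 members in GV oocytes (of 60), 0 in MII oocytes (of 52) and 0 at 11 h (of 55), with 0, 7 and 8 members at an unadjusted p under 0.05. Among all genes tested in these comparisons 1.17%, 3.11% and 0.857% were higher and 1.02%, 1.95% and 0.732% lower. The MII and 11 h counts became 13 with the other WT MII set as control and 4 without the 2 libraries titled 8PEA.

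At 34 h 25 of 59 tested members were lower and 3 higher in maternal Piwil3-/- embryos, beside 21.1% lower and 14.8% higher among all 8032 genes tested. The median log2 difference was -0.81 for the members and -0.02 for all genes. On rescaled values 30 of 50 members were lower and 6 higher, beside 40.5% and 34.8% of all genes, with medians of -2.28 and -0.32, and all 28 calls kept their direction there. Counts of called members ran from 19 to 36 over the alternatives tried, the lowest with these 2 groups fitted alone.

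The lower members came from every role. Of the Sm and snRNP proteins 8 of 12 were lower and 0 higher (median log2 difference -3.08), beside 5 of 9 SF3a and SF3b subunits (-1.59), 7 of 10 tested SR proteins (-1.27), 1 of 3 U2AF genes, 2 of 12 tested PRP factors and 2 of 13 LSm proteins (-0.16). No difference between these groups was tested. Higher members were Lsm10, Lsm5 and the PRP factor Prpf18.

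Snrpd3 (101823276) was 15.9, 62.7, 116 and 83.8 units in the WT libraries and 0, 0 and 0.0597 in the maternal Piwil3-/- libraries, the last from 2 reads (log2 difference -5.81, SE 0.45, adjusted p = 1.6e-11). Snrpc (101835567) was 48.7, 108, 157 and 118 in WT and 0.395, 3.49 and 2.34 in maternal Piwil3-/- embryos (-5.19, SE 0.34, adjusted p = 4.7e-13). Snrpb (106021017) was 26.8, 94.5, 97.1 and 71.5 in WT and 3.02, 0.00902 and 1.01 in maternal Piwil3-/- embryos (-5.03, adjusted p = 4.9e-09). Every maternal Piwil3-/- library lay below every WT library for these 3 genes, and the mean of Snrpc was 52.1-fold and that of Snrpb 53.9-fold lower. Snrpd2 followed the same order, at 33.8 to 96.7 in WT and 5.21, 0.0363 and 1.96 in maternal Piwil3-/- embryos. Snrpa, the U1 protein that binds a stem-loop of U1 RNA, was 3.89, 16.4, 21.3 and 19 in WT and 0.0317, 0.00835 and 0.017 in maternal Piwil3-/- embryos. Neither gene had overlapping genotypes.

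Among the factors of the 3' end of the intron, Sf3b6 (101841822), the SF3b subunit that contacts the branch point adenosine, was 9.24, 77.6, 94.2 and 62.7 units in WT and 0.0247, 0.0259 and 1.32 in maternal Piwil3-/- embryos (log2 difference -5.13, SE 0.49, adjusted p = 8.7e-10). U2af1 was 29, 76.3, 73.8 and 111 in WT and 0.019, 1.05 and 2.99 in maternal Piwil3-/- embryos (-5.03, adjusted p = 2.1e-10). Both genes were far apart between genotypes in every library. Sf3b5 was 37.2 to 171 in WT and 8.71, 2.54 and 7.96 in maternal Piwil3-/- embryos, an 18.3-fold lower mean. In contrast U2af2, the large U2AF subunit that binds the polypyrimidine tract, was 0.387 to 1.19 in WT and 0 to 1.39 in maternal Piwil3-/- embryos, and Sf3b1, the large SF3b subunit, was 0.27 to 2.39 and 0.163 to 0.919. The genotypes overlapped for both.

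Of the SR proteins, Srsf7 was 4.85, 46.8, 77.8 and 25 units in WT and 0.026, 0.00912 and 0.00929 in maternal Piwil3-/- embryos (log2 difference -4.76, adjusted p = 4.1e-08). Srsf5 was 6.58, 12, 21.3 and 12 in WT and 0, 0 and 0.626 in maternal Piwil3-/- embryos (-3.47, adjusted p = 1.4e-06). Srsf3 was 6.03, 30.7, 23 and 28 in WT and 5.02, 0.0111 and 1.32 in maternal Piwil3-/- embryos (-3.04, adjusted p = 1e-05). The genotypes did not overlap for these 3 genes, although the lowest WT library of Srsf3 and the highest maternal Piwil3-/- library were close. Srsf1, a founding member of the SR family, was 2.3, 2.73, 19.8 and 5.52 in WT and 1.97, 3.67 and 2.47 in maternal Piwil3-/- embryos and was not called. Srsf2 and Sf3b4 were listed at 0 in all 3 maternal Piwil3-/- libraries, with WT means of 1.48 and 2.46 units, and Prpf8, which was not called, was also listed at 0 there and 0.45 to 1.11 in WT.

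The 2 members with the largest rises in maternal Piwil3-/- embryos were LSm genes. Lsm10 was 22.4, 14.6 and 19 units (1370 to 2145 reads) in maternal Piwil3-/- and 0.0171, 0.0292, 1.1 and 0.0108 (1 to 77 reads) in WT embryos (log2 difference 3.99, SE 0.27, adjusted p = 8.2e-13). Lsm5 (101841689), a subunit of both LSm rings, was 20, 20.5 and 27.9 in maternal Piwil3-/- and 2.96, 5.58, 5.08 and 1.64 in WT embryos (2.38, SE 0.33, adjusted p = 8.3e-07). Both genes were higher in every maternal Piwil3-/- library than in any WT library, and both had been abundant at 11 h (102.7 to 179 and 50.9 to 133 units in WT). Lsm11, the partner of Lsm10 in the U7 ring, was 5.73 to 16.7 in WT at 11 h, 0 to 0.0323 in WT and 0.00157 to 0.769 in maternal Piwil3-/- embryos at 34 h, with overlap and no call. Prpf18, a factor of the later catalytic step, was 4.58, 0.189 and 4.97 in maternal Piwil3-/- and 0 to 0.967 in WT embryos, with overlapping genotypes (1.51, adjusted p = 0.0034). A list of 5 oocyte markers was higher in the same maternal Piwil3-/- libraries, at 0.343% to 0.506% of all values beside 0.0134% to 0.0561% in WT, and the sum of all values was 22320.7 to 35158 units beside 27069.8 to 55247.9. Their part in the differences was not tested.

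**Figure D2:**
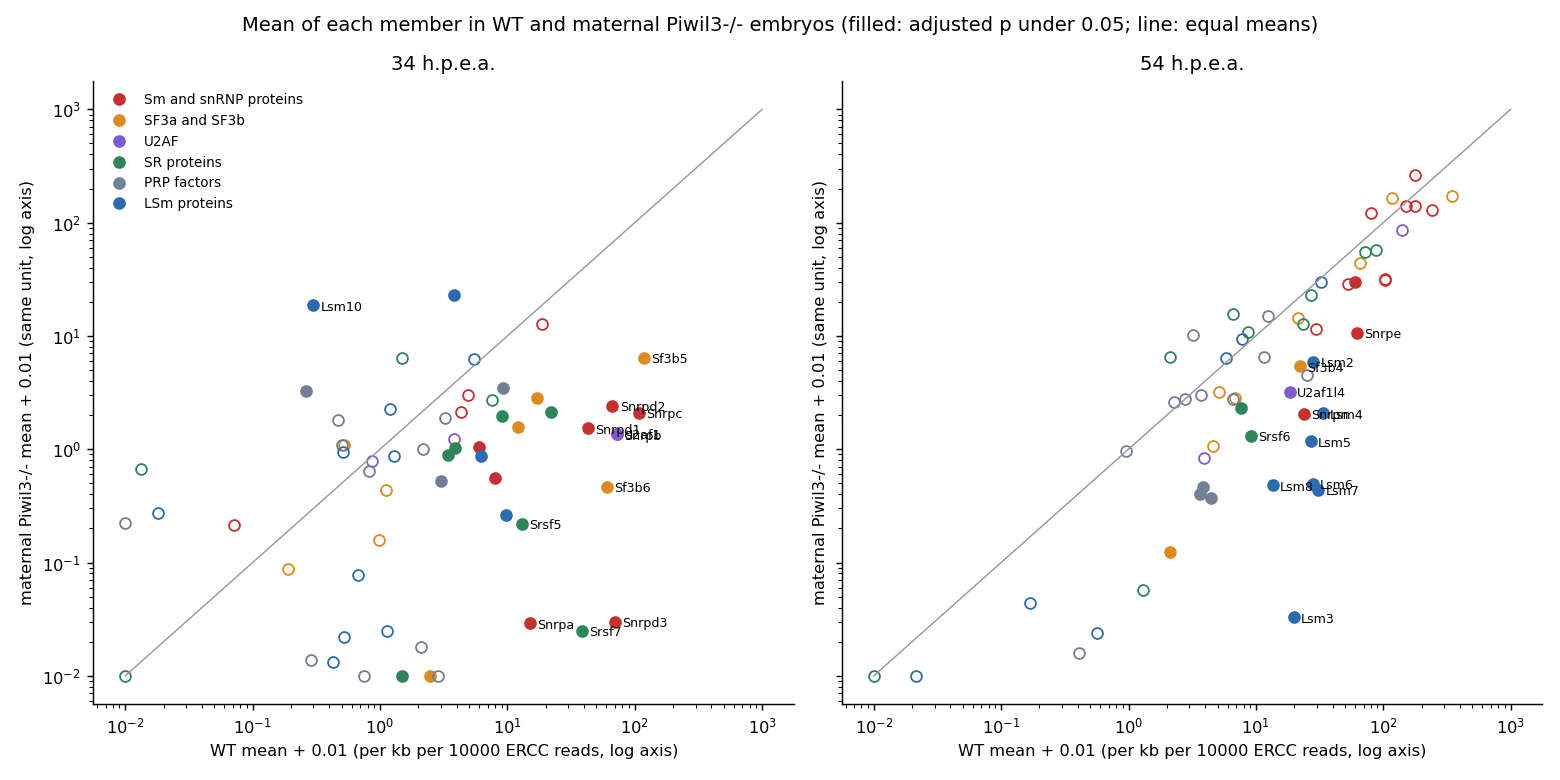
Mean value of each splicing gene in WT embryos (x axis) and in maternal Piwil3-/- embryos (y axis) at 34 and 54 h, in spike-in units + 0.01 on log axes, colored by role, with filled points for genes at an adjusted p under 0.05. At 34 h the 25 lower genes lie below the diagonal, with Lsm10 and Lsm5 above it, and at 54 h Lsm2 to Lsm8 lie below it.

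The change between ages itself differed between genotypes. The difference between the genotypes in the change from 11 to 34 h was called for 25 of 55 members, 23 with a lower and 2 with a higher change in maternal Piwil3-/- embryos, beside 12.2% and 9.73% of all genes. On rescaled values 25 of 56 had a lower and 9 a higher change, beside 16.4% and 30.4% of all genes. The difference was -5.78 on the log2 scale for Sf3b6, -5.73 for Snrpd3 and -5.62 for Snrpc, and 4.50 for Lsm10 and 1.73 for Lsm5. In maternal Piwil3-/- embryos 48 of 51 members were lower at 34 than at 11 h and 1 was higher, beside 97.9% and 0.172% of all genes, and on rescaled values 23 of 49 were lower and 4 higher, beside 43.5% and 6.27%. The higher one was Sf3b5, from 0, 3.32, 0.627, 5.67 and 2.52 units to 8.71, 2.54 and 7.96, with overlap (log2 difference 1.28, adjusted p = 0.038).

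Between 34 and 54 h splicing genes of every role rose in WT embryos on the spike-in scale, on which many other genes rose too. Of 59 tested members 39 were higher and 0 lower, beside 40.8% higher and 4.22% lower among all genes tested, with medians of 1.74 and 0.80. On rescaled values 13 of 55 were higher and 8 lower, beside 21.8% and 20.4% of all genes, with medians of 0.16 and 0.18. The members' share of all values therefore gave no rise of their own. The largest rises were Snrpa1 (101826662), from 0.0172, 2.83, 11.1 and 5.66 units to 109 and 99.5 (log2 difference 4.64, SE 0.60), Snrpn, from 0 to 0.23 to 16.9 and 31 (4.50, SE 0.43), and Lsm4, from 0 to 1.48 to 53 and 14.3 (4.45, SE 0.48). The ages did not overlap for these genes, nor for 54.5% of all genes tested. Lsm10 was 0.0777 and 0.24 units (2 and 4 reads) in WT at 54 h.

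In maternal Piwil3-/- embryos 35 of 60 tested members were higher and 2 lower at 54 than at 34 h, beside 27.5% and 10.4% of all genes, with medians of 1.64 and 0.15. On rescaled values 30 of 52 were higher and 7 lower, beside 37.2% and 36.8%. The largest rises were Snrpd3 (7.01, SE 0.54), Sf3b6 (6.95, SE 0.59) and Snrpc (6.57, SE 0.41). Lsm10 and Lsm5 were the lower members (-4.23 and -3.46). All 9 members that rose in WT embryos from 11 to 34 h were among the 35 that rose in maternal Piwil3-/- embryos from 34 to 54 h, 9 of 9 and 9 of 35. These 2 comparisons share no libraries. The same overlap was not counted over all genes, and 35 of 60 members rose in the later step, so no trait particular to the members can be read from it. The comparison of genotypes at 34 h shares libraries with each of these 2 comparisons. The difference between the genotypes in the change from 34 to 54 h was called for 30 of 59 members, higher in maternal Piwil3-/- embryos for 16 and lower for 14, beside 13.3% and 19.8% of all genes, and on rescaled values for 24 and 6 of 52, beside 36.5% and 21.7%. It was 5.78 on the log2 scale for Snrpc, 5.64 for Sf3b6 and 4.95 for Snrpd3, and -5.04 for Lsm7 and -4.38 for Lsm3.

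At 54 h the genes that were lower in maternal Piwil3-/- embryos were mostly other members. Of 60 tested 18 were lower and 0 higher, beside 22.6% lower and 4.46% higher among all 9407 genes tested, with medians of -0.83 and -0.46. The members lower at 34 and at 54 h, which share no libraries, had Lsm2, Sf3b4 and Srsf11 in common, 3 of 25 and 3 of 18. This overlap was not counted over all genes either. The 2 libraries per genotype gave 0 calls when fitted alone, and on rescaled values 11 of 55 members were lower and 3 higher, beside 20.4% and 14%, with a member median of 0.11.

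Several members far below WT at 34 h were not called at 54 h. Snrpb was 147 and 153 units in WT and 142 and 137 in maternal Piwil3-/- embryos, and Snrpc was 214 and 140 beside 224 and 303. Sf3b6 was 119 and 113 beside 155 and 178. Srsf7 was 53.5 and 89.4 beside 66.9 and 43.9. On rescaled values Snrpc was higher in maternal Piwil3-/- embryos (adjusted p = 0.031) and the other 3 genes were not called. Snrpd3 at 287 and 196 beside 127 and 133, Sf3b5 at 428 and 269 beside 181 and 165, and U2af1 at 161 and 120 beside 90 and 81.2 were lower in each maternal Piwil3-/- library than in each WT library and were not called on either scale. Groups of 2 libraries did not overlap for 61% of all genes tested at this age, and the groups at 34 h for 35.2%.

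Among the LSm genes the lower ones at 54 h were Lsm2 to Lsm8, the U6 ring, 7 of 13 tested (median log2 difference -2.30). Outside the ring Lsm10, Lsm11 and Lsm14b had 2 and 4, 1 and 1, and 47 and 0 reads in WT, so they had little room to be lower. Lower were also 3 of 12 Sm and snRNP proteins, 2 of 9 SF3a and SF3b subunits, 2 of 10 SR proteins, 3 of 13 PRP factors and 1 of 3 U2AF genes. None of these calls remained with the genotypes at 54 h fitted alone. Lsm7 (101838265) was 38.3 and 23.4 units (315 and 125 reads) in WT and 0.859 and 0 (12 and 0 reads) in maternal Piwil3-/- embryos (log2 difference -4.51, SE 0.75, adjusted p = 3.2e-05). Lsm6 (101830615) was 31.5 and 24.3 in WT and 0.966 and 0 in maternal Piwil3-/- embryos (-4.35, SE 0.71, adjusted p = 2.3e-05). Lsm3 was 9.27 and 30.4 (119 and 253 reads) in WT and 0.0459 and 0 (1 and 0 reads) in maternal Piwil3-/- embryos (-4.14, SE 0.78, adjusted p = 0.00017). For each, WT and maternal Piwil3-/- libraries were well apart.

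Lsm5 changed order between ages. It was 26 and 28.2 units in WT and 0.847 and 1.48 in maternal Piwil3-/- embryos at 54 h (log2 difference -3.71), after the opposite order at 34 h, and the change from 34 to 54 h differed between genotypes by -6.09 (SE 0.55, adjusted p = 5.6e-10). Lsm4 was 53 and 14.3 beside 2.48 and 1.66, Lsm8 was 7.75 and 19.3 beside 0 and 0.939, and Lsm2 was 26.1 and 30.5 beside 2.37 and 9.37. Lsm2 had an adjusted p of 0.028 on the spike-in scale and 0.26 on rescaled values, whereas the other 6 ring genes were called on both. Lsm1, the subunit particular to the cytoplasmic ring, was 11.9 and 3.78 in WT and 6.97 and 11.6 in maternal Piwil3-/- embryos, with overlap and no call.

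Summed over the ring, Lsm2 to Lsm8 were 170 to 192 units in WT and 7.57 to 13.4 in maternal Piwil3-/- embryos at 54 h, or 0.101% to 0.102% and 0.0087% to 0.0149% of all values. The Sm ring was 704 to 884 units in WT and 560 to 608 in maternal Piwil3-/- embryos, or 0.416% to 0.472% and 0.621% to 0.699% of all values. Thus the U6 ring was lower in maternal Piwil3-/- libraries by both measures, while the Sm ring was lower in units and higher as a share. At 34 h the Sm ring was lower in maternal Piwil3-/- embryos by both measures, at 105 to 375 units in WT and 7.11 to 10.1 in maternal Piwil3-/- embryos, or 0.389% to 0.790% and 0.0202% to 0.0451% of all values. The sum of Lsm2 to Lsm8 had the opposite order of genotypes at 34 h, at 10.5 to 22 units in WT and 23.6 to 35.8 in maternal Piwil3-/- embryos. Most of that maternal Piwil3-/- sum was Lsm5 (log2 difference 2.38), so the order does not hold for the ring genes in general. Lsm2 was called lower in maternal Piwil3-/- embryos at that age. The sum of all values was 169394 to 187333 units in WT and 87011.4 to 90139.4 in maternal Piwil3-/- embryos at 54 h, and the oocyte markers were 0.0044% to 0.00819% and 0.00557% to 0.0128% of all values.

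**Figure D3:**
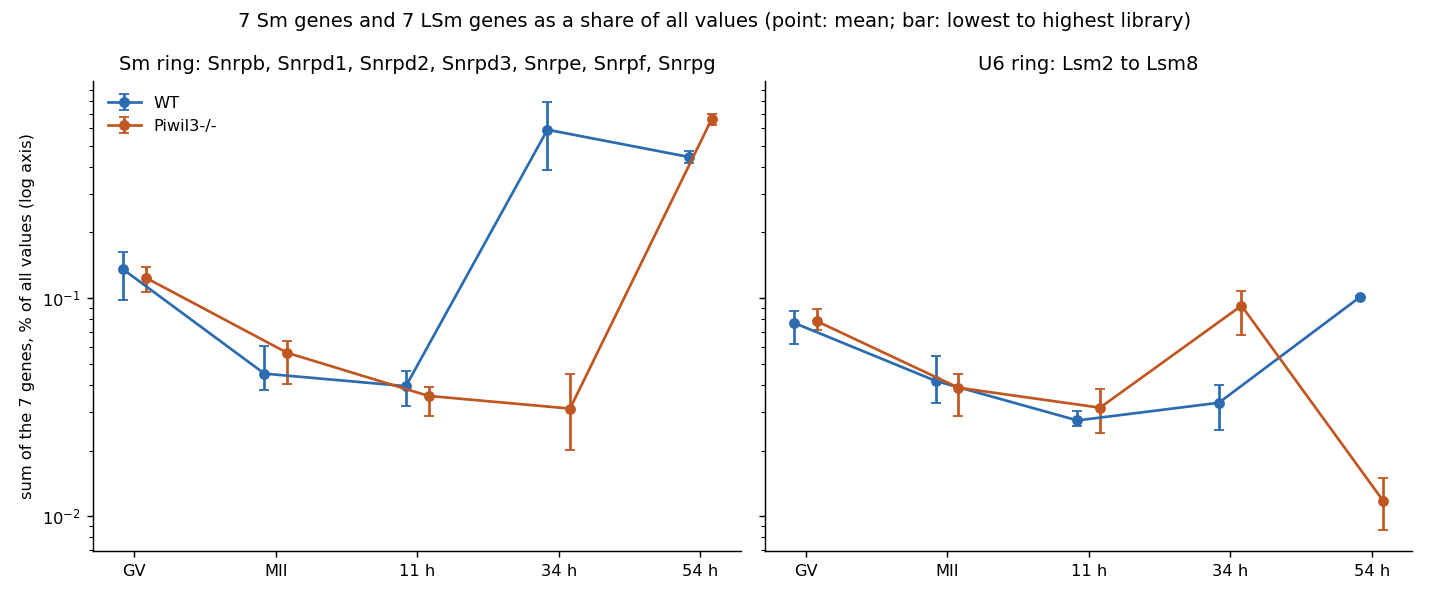
Summed values of the Sm ring genes and of Lsm2 to Lsm8 as a percentage of all values from GV oocytes to 54 h in WT and Piwil3-/- series, drawn as group means with bars from the lowest to the highest library. Both rings separate the genotypes at 34 and at 54 h. In maternal Piwil3-/- embryos the Sm ring is lower at 34 h and higher at 54 h. Lsm2 to Lsm8 are higher there at 34 h, mostly through Lsm5, and lower at 54 h, with WT at 0.101% to 0.102%.

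Other members lower in maternal Piwil3-/- embryos at 54 h were Snrpn, at 16.9 and 31 units in WT and 0.028 and 4.06 in maternal Piwil3-/- embryos (log2 difference -3.39, adjusted p = 5.5e-06), and Snrpe, an Sm ring protein, at 65.3 and 59.6 beside 14 and 7.36 (-2.50, adjusted p = 0.0026). U2af1l4, a U2af1 paralog, was 17.6 and 19.5 beside 3.01 and 3.43. Prpf8 was 1.28 and 6.34 in WT and 0.399 and 0.501 in maternal Piwil3-/- embryos (-1.50, adjusted p = 0.023). The genotypes did not overlap for these 4 genes, and Snrpe and U2af1l4 were not called on rescaled values (adjusted p = 0.18 and 0.4). Lsm14a, a P-body protein, was 5.01 to 7.66 units over both genotypes and was not called. Leaving out 1 library at a time gave 13 to 18 called members.

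**Figure D4:**
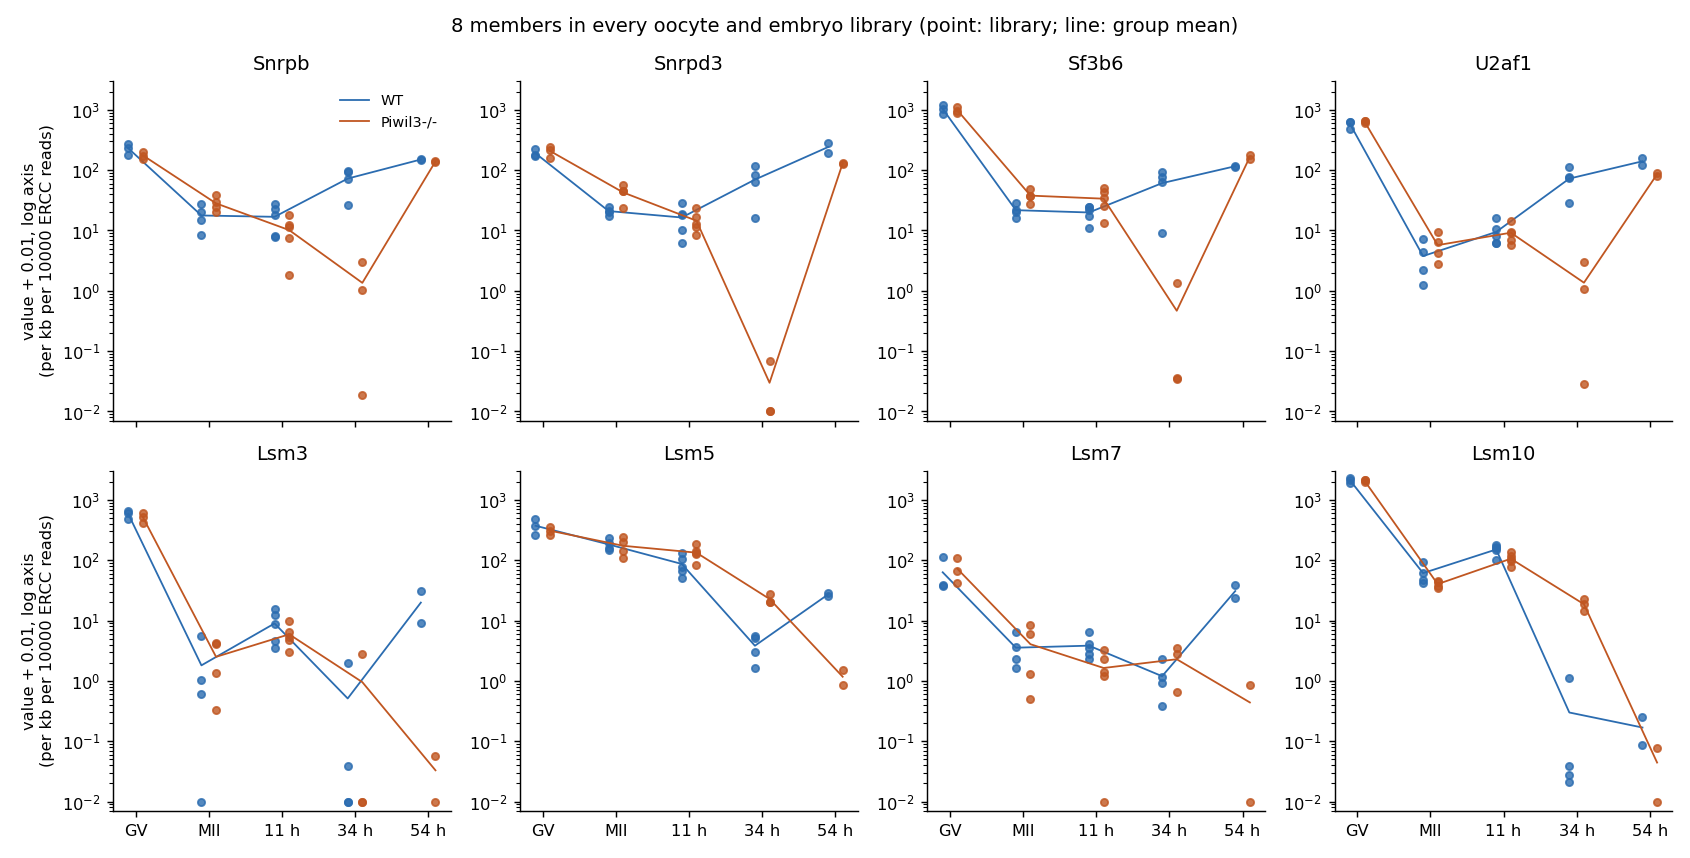
Values of Snrpb, Snrpd3, Sf3b6, U2af1, Lsm3, Lsm5, Lsm7 and Lsm10 in every library from GV oocytes to 54 h, in spike-in units + 0.01 on a log axis, with WT and Piwil3-/- series side by side. Snrpd3 is at 15.9 to 116 in WT and at most 0.0597 in maternal Piwil3-/- embryos at 34 h, and Lsm7 is at 38.3 and 23.4 beside 0.859 and 0 at 54 h.

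Further splicing genes were counted in 5 lists of other snRNP proteins, minor spliceosome proteins, snRNP assembly factors, SR protein kinases and relatives, and hnRNPs. At 34 h maternal Piwil3-/- embryos had 18 lower and 3 higher of 50 other snRNP and spliceosome proteins, 4 lower and 0 higher of 10 minor spliceosome proteins, 4 and 3 of 13 assembly factors, 6 and 2 of 15 SR kinases and relatives, and 10 and 5 of 34 hnRNPs and splicing regulators. Of the 61 members 25 of 59 tested were lower, and of all genes tested at this age 21.1% were lower and 14.8% higher. The median log2 differences of the 5 lists were -0.55, -1.23, -1.02, -0.31 and -0.29. Phax, the export adaptor of U snRNAs, was lower (log2 difference -4.58), as were the U5 protein Txnl4a (-4.13), the U11/U12 protein Snrnp25 (-3.14) and Hnrnpa1 (-3.53). At 54 h the assembly chaperone Clns1a was lower (-4.76), and the 5 lists had 17 of 53, 1 of 11, 5 of 14, 5 of 16 and 14 of 35 lower and 0 higher, beside 22.6% lower and 4.46% higher among all genes tested. Fitting the 2 genotypes at 54 h alone left none of the 18 member calls there (0).

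In the further set of MII oocytes the counts of called members depended on the WT set used as control. Piwil2-/- oocytes had 1 higher and 0 lower of 57 members, beside 0.193% and 0.034% of all genes tested. It was Lsm8 (121133000), at 10.2, 13.3 and 15.5 units in Piwil2-/- and 0.315, 1.93 and 1.2 in WT oocytes (log2 difference 2.76, SE 0.50, adjusted p = 0.036). The groups did not overlap, nor did they for 14.6% of all genes tested. However, the 4 WT MII oocytes of the other set had 6.33, 16.6, 14.7 and 11.4 units. The call was lost without any 1 of the 6 libraries of the comparison and with the other WT set as control (0.13). With that other set as control 10 members were called, 6 higher and 4 lower.

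Piwil4-/- MII oocytes had 5 higher and 5 lower of 58 members, beside 2.76% and 17.7% of all genes tested. Lsm8 was 13.2 and 32.2 units (log2 difference 3.41, adjusted p = 0.00064) and Snrpd3 was 30.7 and 43.6 beside 3.26, 12.9 and 11.7 in WT (2.05, adjusted p = 0.014). Srsf3 was 2.59 and 15.3 beside 29.5, 34.7 and 41.2 (-2.23, adjusted p = 0.0079). The groups were apart in each case, as they were for 46.4% of all genes tested. On rescaled values 4 of 58 members were higher and 8 lower, beside 3.57% and 20%. With the other WT set as control Srsf3 was the 1 member called (-2.12, adjusted p = 0.033), and Prpf3, a tri-snRNP protein at -1.67, turned to 0.44. The call of Srsf3 was lost without Piwil4-/- replicate 2 (-1.14) and that of Snrpd3 without Piwil4-/- replicate 4 (1.80). The 10 called members were 6 without Piwil4-/- replicate 2, WT replicate 2 or WT replicate 3.

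In whole testes the counts of higher and lower members are given on the spike-in and on the rescaled scale. From 3 d.p.p. to adult WT testes 18 of 59 members were higher and 8 lower, beside 67% and 15.8% of all genes tested, and on rescaled values 5 of 57 were higher and 41 lower, beside 37% and 48.7%. The median of all genes was 1.30 on the spike-in scale and -0.35 rescaled, and that of the members 0.30 and -0.96. Snrpc was 13.3 and 17.5 units at 3 d.p.p. and 87.3 and 68.6 in adults (2.27, SE 0.27, adjusted p = 2e-06), and Snrpd2 was 6.22 and 17.1 and then 60.7 and 55.7 (2.37, SE 0.35, adjusted p = 2.3e-05). U2af2 was 11.9 and 15.4 and then 6.02 and 6.18 (-1.03, SE 0.20, adjusted p = 0.00025). These 3 genes kept their direction and call when rescaled.

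At 3 d.p.p. limma called 0 members in Piwil2-/- and 0 in Piwil4-/- testes, with 3 and 2 at an unadjusted p under 0.05, beside 0.197% and 0.14% higher and 0.201% and 0.163% lower among all genes tested. Without WT replicate 1 at that age 3 members were called in Piwil2-/- and 2 in Piwil4-/- testes. In adult Piwil3-/- testes 0 were called, with 7 at an unadjusted p under 0.05, beside 4.91% higher and 1.4% lower of all genes, and 1 on rescaled values.

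Adult Piwil2-/- testes had 35 lower and 4 higher of 58 members, and Piwil4-/- testes 31 lower and 4 higher of 57, beside 64% and 63.2% lower and 20.2% and 19.7% higher among all genes tested. On rescaled values 12 of 57 were lower and 23 higher in Piwil2-/-, beside 38.6% and 46.5%, and 13 of 56 and 26 in Piwil4-/- testes, beside 38.5% and 45.7%. Both comparisons use the same 2 WT libraries. The Sm ring gene Snrpg was 45.8 and 40.8 units in WT, 8.43 and 5.74 in Piwil2-/- and 8.15 and 6.58 in Piwil4-/- testes (log2 differences -2.47 and -2.41). Snrpn went the other way, at 4.36 and 1.73 in WT, 9.69 and 10.4 in Piwil2-/- and 9.51 and 13.7 in Piwil4-/- testes (1.53, adjusted p = 0.00015, and 1.70, adjusted p = 5.8e-05). U2af2 was higher too (0.85 and 0.79). Neither Snrpg, Snrpn nor U2af2 overlapped between mutant and WT or changed direction when rescaled. Mutant and WT did not overlap for 93.6% of all genes tested in Piwil2-/- and 91.9% in Piwil4-/- testes. Sertoli cell markers were 0.0175% to 0.0252% of all values in WT, 0.229% to 0.257% in Piwil2-/- and 0.196% to 0.25% in Piwil4-/- adult testes, and spermatid markers were 0.562% to 1.09%, at most 0.000463% and at most 0.00148%. Their part in these differences was not tested.

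Adult Piwil1-/- testes had 2 higher and 2 lower of 59 members, beside 7.24% and 28.7% of all genes tested, and 28 higher and 1 lower of 55 on rescaled values, beside 38.9% and 21.3%. Lsm10 was 8.47 and 11.8 units in WT and 2.51 and 2.83 in Piwil1-/- testes (log2 difference -1.59, SE 0.20, adjusted p = 1e-05), with no overlap. The genotypes did not overlap for 62% of all genes tested. Lsm14a (101826654) was 5.06 and 3.04 beside 6.53 and 7.84 (0.72, adjusted p = 0.025) and Sf3b6 was also higher (0.66, adjusted p = 0.04). Sf3b4, at -0.69, was not called on rescaled values (adjusted p = 0.43). Without WT replicate 2 Lsm10 was the 1 member called, without WT replicate 1 or Piwil1-/- replicate 2 there were 2, and Sf3b6 was not called without any 1 of the 4 libraries. Spermatid markers were at most 0.000619% of all values in Piwil1-/- testes.

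In sorted WT cells the members were 1.87% to 2.04% of all values in SPG/PL cells, 1.63% to 2.04% in LZ, 0.942% to 1.14% in P and 0.771% to 0.828% in D cells. The share overlapped between SPG/PL and LZ cells and was lower in every P library and lower again in every D library. From SPG/PL to LZ 23 of 58 members were higher and 5 lower, beside 34.1% and 26% of all genes tested, and on rescaled values 19 of 59 were higher and 15 lower, beside 30.3% and 40%. Snrpb2 was 13.4 to 20.4 units in SPG/PL and 41.5 to 55.3 in LZ cells (log2 difference 1.43, SE 0.16, adjusted p = 5.2e-09). The 3 U2AF genes moved in different directions. U2af1 was 17.8, 25.1, 28.3 and 24.9 in SPG/PL and 61.2, 62.8, 33.8 and 45.7 in LZ cells (1.03), U2af1l4 was 19.5 to 32.1 and then 7.93 to 13.6 (-1.20), and U2af2 was 22.2 to 32.7 and then 12.5 to 19.5 (-0.79). The 2 stages did not overlap for any of them, nor for 40.2% of all genes tested, and the directions held on rescaled values. The count of 28 called members was 13 without both WT LZ libraries numbered 1 and 12 with the 2 groups fitted alone.

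From LZ to P cells 43 of 59 members were higher and 1 lower, beside 81.8% and 6.96% of all genes tested, and on rescaled values 6 of 58 were higher and 40 lower, beside 38.1% and 43.4%. The medians were 0.85 for the members and 1.43 for all genes, and -0.76 and -0.10 rescaled. Sf3a1 (101837511), an SF3a subunit, was 12.4 to 21.4 units in LZ and 64 to 94 in P cells (log2 difference 2.27, SE 0.17), and 129 to 154 in D cells. Lsm5 was the lower member, at 24.1 to 40.5 in LZ and 10.6 to 15.4 in P cells (-1.24, SE 0.17, adjusted p = 9.5e-08). Neither gene overlapped between stages, nor did 83% of all genes tested, and both members kept their direction when rescaled.

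From P to D cells 23 of 59 were higher and 10 lower, beside 57.2% and 9.16% of all genes tested, and 4 and 38 on rescaled values, beside 23.9% and 33.3%. Srsf12, an SR-related protein, was 0.084, 0.332, 0.164 and 0.167 units in LZ, 3.18, 6.15, 3.27 and 3.54 in P and 10.4, 17.8, 17.1 and 20.6 in D cells. Each stage lay above the one before without overlap, and the difference from P to D was 1.79 (SE 0.18, adjusted p = 4.5e-09) and 1.06 on rescaled values. P and D cells did not overlap for 65.1% of all genes tested. Lsm7 was lower, at 36.9 to 57.9 in P and 8.13 to 25.3 in D cells (-1.64), and U2af1 was 42.4 to 53.1 and then 18 to 23.4 (-1.17).

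Piwil1-/- sorted cells differed from WT in few members. limma called 0 of the members in SPG/PL cells and 0 in LZ cells, each with 2 at an unadjusted p under 0.05, beside 0.0166% and 0% higher and 0% and 0.0172% lower among all genes tested. The LZ count became 12 without WT LZ replicate 2A and 24 without both WT LZ libraries numbered 2. In P cells 1 member of 59 was higher and 0 lower, beside 2.51% and 0.304% of all genes, and in D cells 1 was higher and 1 lower, beside 8.42% and 1.89%. On rescaled values 1 was higher and 1 lower in P cells, beside 2.61% and 0.78%, and 1 and 4 in D cells, beside 7.2% and 2.94%. Lsm14a was the higher member in both stages. It was 17.1, 17.8, 14.2 and 16.7 units in WT and 23.3, 22.4, 31 and 19.9 in Piwil1-/- P cells (log2 difference 0.51, adjusted p = 0.0496), a call lost without any 1 library other than Piwil1-/- replicate 2B. In D cells it was 16.4, 13.7, 20.6 and 15.8 in WT and 27.9, 28.5, 32.9 and 29.6 in Piwil1-/- cells (0.81, SE 0.14, adjusted p = 0.00012), with no overlap in either stage. Of all genes tested 5.3% did not overlap in P and 14.7% in D cells. U2af2 was lower in D cells, at 7.94 to 9.08 in WT and 4.34 to 6.18 in Piwil1-/- cells (-0.55, adjusted p = 0.027, and 0.078 on rescaled values), a call lost without Piwil1-/- replicate 1A or 2B or WT replicate 2A or 2B.

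In the 7-stage series, in FPKM, members fell between pachytene spermatocytes and round spermatids. From spermatogonia to preleptotene 1 was higher and 0 lower, beside 1.57% and 4.59% of all genes tested, namely Snrpe (106023046), from 798 and 871 to 1345 and 1513 FPKM (log2 difference 0.77, adjusted p = 0.03). The call was lost with the 2 groups fitted alone and without either spermatogonia library or preleptotene replicate 2. From preleptotene to leptotene limma called 0, with 18 at an unadjusted p under 0.05, beside 4.66% and 0.597%, and 3 without preleptotene replicate 1. From leptotene to zygotene 4 were higher and 7 lower, beside 7.31% and 19.5%, among them U2af1, from 189 and 185 to 323 and 318 (0.77), and U2af1l4 at -1.30. With the 2 groups fitted alone 20 members of that comparison were called. Without leptotene replicate 2 none was called (0), 3 were without zygotene replicate 1, 6 without leptotene replicate 1 and 8 without zygotene replicate 2.

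From zygotene to pachytene 5 of 60 members were higher and 23 lower, beside 24.2% and 32.9% of all genes tested. Lsm5 fell from 216 and 184 to 42.2 and 39.2 FPKM (log2 difference -2.26, SE 0.26, adjusted p = 3.2e-05), without overlap. Of all genes tested 83.4% did not overlap. The 28 called members were 18 without zygotene replicate 1. From pachytene to round spermatids 55 of 60 were lower and 1 higher, beside 41.4% and 40.8% of all genes tested, with medians of -2.37 and -0.06. These were 12 of 12 Sm and snRNP proteins (median -1.16), 7 of 9 SF3a and SF3b subunits (-1.11), 3 of 3 U2AF genes (-3.24), 10 of 11 SR proteins (-2.50), 12 of 13 PRP factors (-1.64) and 11 of 12 tested LSm proteins (-2.60). On rescaled values 55 were lower and 0 higher, beside 42% and 40.2%.

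Lsm7 was 148 and 207 FPKM in pachytene cells and 1.62 and 0.912 in round spermatids (log2 difference -6.30, SE 0.22, adjusted p = 5.8e-09). Snrpe was 497 and 463 and then 7.33 and 11.5 (-5.56, SE 0.18, adjusted p = 2.5e-09), and Snrpb was 360 and 373 and then 5.35 and 13.6 (-5.25, SE 0.28, adjusted p = 6.3e-08). Srsf3 was 246 and 215 and then 12.7 and 17, and Lsm14a was 31 and 28.4 and then 0.441 and 1. No gene of these 5 overlapped between stages, nor did 92.8% of all genes tested. The fall was uneven within the Sm ring, whose sum was 2319 to 2444 FPKM in pachytene cells and 706.7 to 707.4 in round spermatids, where Snrpg and Snrpd2 had means of 280 and 265. Sf3b4 (101822351), an SF3b subunit, was 174 and 182 and then 227 and 239 (0.39, adjusted p = 0.029), a call lost on rescaled values (0.34, adjusted p = 0.062) and without any 1 of the 4 libraries.

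Mature sperm differed from round spermatids in both directions, with 24 of 59 members higher and 21 lower, beside 46.5% and 31.8% of all genes tested. Snrpn was 0.253 and 0.238 FPKM in round spermatids and 49.1 and 52 in sperm (log2 difference 5.37, SE 0.29, adjusted p = 7.3e-08), the highest of its 7 stages. Lsm7 was 1.62 and 0.912 and then 50.8 and 38.1 (4.33), and Lsm14a 0.441 and 1 and then 17.5 and 17 (3.42). Sf3b4 was lower, at 227 and 239 and then 37.5 and 30.8 (-2.74), as was Snrpa1 (-2.10). The stages did not overlap for any of these genes, nor for 86.2% of all genes tested. Sperm carry little RNA, and FPKM is relative to the reads of each library, so no change in RNA per cell can be read from these values. As a share of all values the members had stage means of 1.77%, 2.06%, 1.84%, 1.84%, 1.32%, 0.456% and 0.290% from spermatogonia to sperm. Spermatid markers were 0.72% to 1.04% of all values in round spermatids and 1.35% to 2.7% in sperm.

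**Figure D5:**
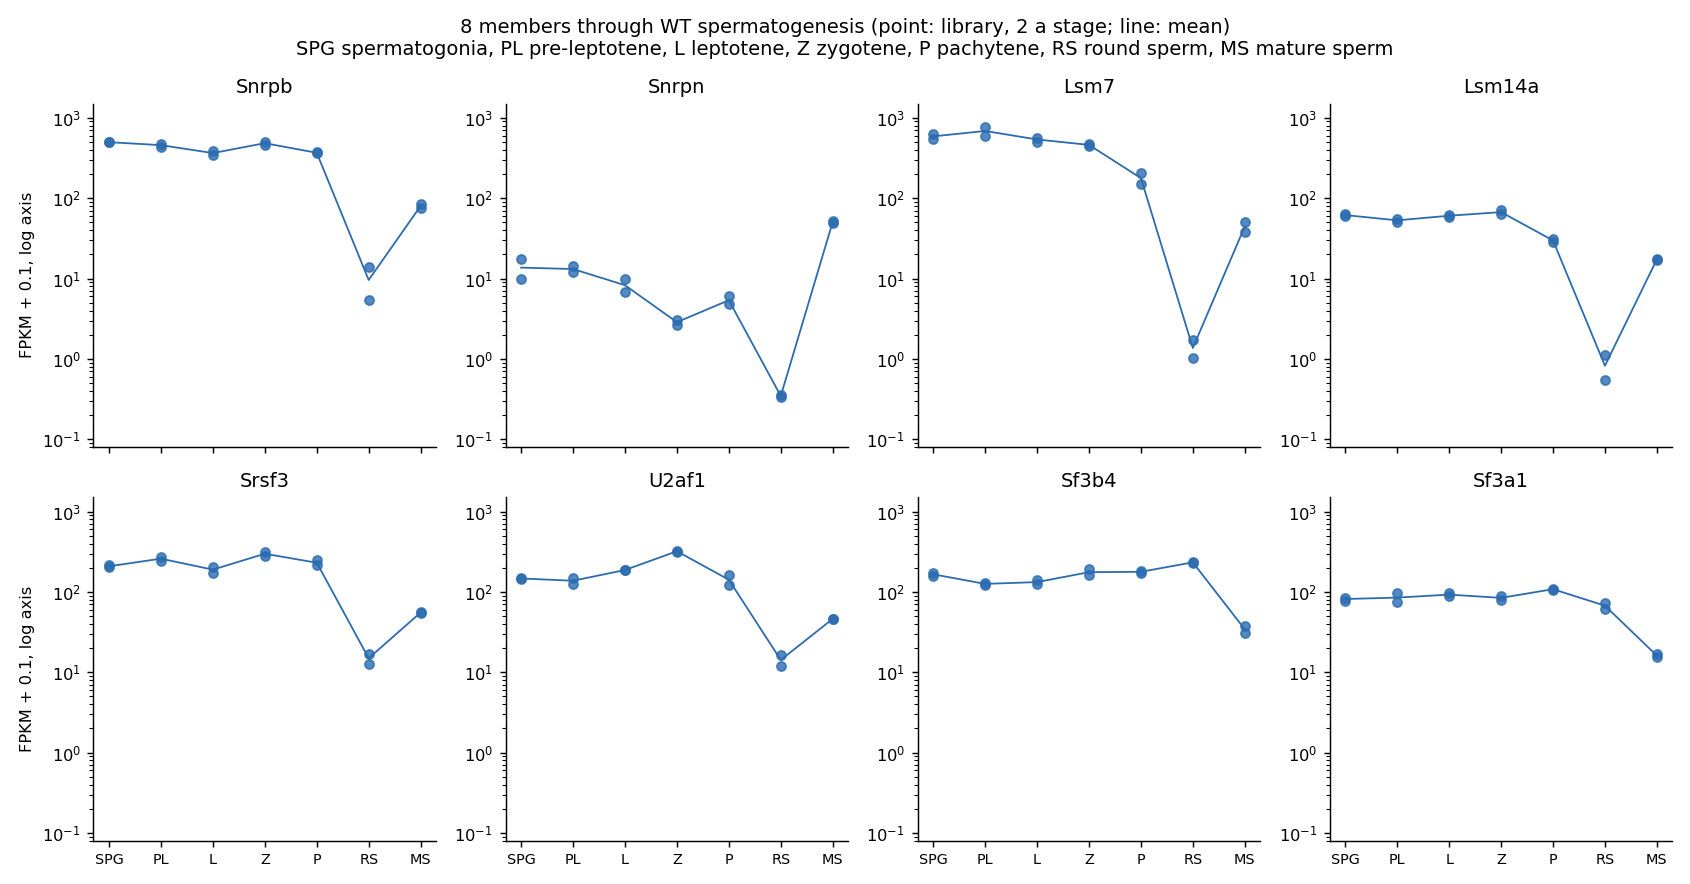
Values of Snrpb, Snrpn, Lsm7, Lsm14a, Srsf3, U2af1, Sf3b4 and Sf3a1 in the 2 libraries of each of 7 WT spermatogenic stages, in FPKM + 0.1 on a log axis. Snrpb goes from 360 and 373 in pachytene cells to 5.35 and 13.6 in round spermatids, whereas Sf3b4 is at 227 and 239 there, and Snrpn is highest in mature sperm at 49.1 and 52.

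Paralog ratios, with 0.1 added to both values, were compared within libraries for 9 pairs in 5 comparisons. The spike-in scale cancels where both genes are well above 0.1. Where a gene is near 0, the ratio depends on the added 0.1 and on the partner's value in spike-in units. None of the 45 exact permutation tests, two-sided, passed an adjusted p of 0.05, the lowest being 0.0677 with 21 at an unadjusted p under 0.05, and several reached the smallest p their group sizes allow. The log2 ratio of Snrpn to Snrpb was 1.45 ± 0.58 (SD, n = 5) in WT embryos at 11 h and -8.85 ± 1.7 (SD, n = 4) at 34 h, a difference of -10.30 (exact permutation p = 0.00794). That of U2af1l4 to U2af1 differed by -8.09 between the same groups (exact permutation p = 0.00794). That of Snrpb2 to Snrpa was 0.49 ± 0.96 (SD, n = 4) in WT and 6.64 ± 0.92 (SD, n = 3) in maternal Piwil3-/- embryos at 34 h (exact permutation p = 0.0286, the smallest possible). In each case the groups did not overlap. Ratios with a gene near 0, such as Snrpn in WT embryos at 34 h, rest on few reads and on the added 0.1, so their size cannot be read literally.

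Some steps of Sf3b1 and Srsf1 were called in spike-in units and not on rescaled values. Sf3b1 (101840127) was 19.6 to 26.8 units in WT GV oocytes, 11.2 to 14.3 in MII oocytes, 5.08 to 9.78 at 11 h and 0.27 to 2.39 at 34 h, where the fall from 11 to 34 h (log2 difference -2.11, adjusted p = 3.4e-07) was not called on rescaled values (0.22, adjusted p = 0.62). In sorted WT cells it was 5.67 to 14.3 in LZ, 22.2 to 32.6 in P and 44.5 to 54.9 in D cells, with neither step called on rescaled values (adjusted p = 0.5 and 0.35). Srsf1 (101832115) was 147 to 158 units in WT GV and 12.9 to 21.4 in MII oocytes (-3.10, adjusted p = 1.3e-08), and this fall was not called on rescaled values either (adjusted p = 0.12). Each of these steps separated the libraries without overlap in units. Between pachytene cells and round spermatids, where the table is in FPKM, Srsf1 was 147 in both libraries and then 9.56 and 14.7 (-3.52, adjusted p = 2.5e-07), and Sf3b1 was 41.7 and 46.5 and then 12.9 and 23.1 (-1.30, adjusted p = 0.0025).

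Lsm14b (101840012), an oocyte-enriched paralog of Lsm14a in mouse, was 17.2 to 34.4 units in WT GV oocytes, 6.31 to 11.6 in MII oocytes, 6.31 to 11.9 at 11 h, 0 to 1.31 at 34 h and 0 and 1.12 at 54 h. It fell from 11 to 34 h in WT (log2 difference -2.70, adjusted p = 9.9e-09, and -1.36, adjusted p = 0.015, on rescaled values). In maternal Piwil3-/- embryos it was at most 0.0317 at 34 h and at most 0.028 at 54 h, with no call against WT at either age. Lsm14a was 40.7 to 127 units in WT at 11 h and 2.75 to 8.65 at 34 h, where maternal Piwil3-/- embryos had 3.85 to 9.65 and overlapped WT.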

How the data were processed

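Full-length cDNA of oocytes, embryos, testes and sorted germ cells was sequenced after ERCC spike-in addition (Smart-seq2). Per the labels, the authors used Trim Galore 0.5.0 for trimming, STAR 2.9 for alignment (assembly BCM_Maur_2.0) and featureCounts 1.6.4 for gene counts with multi-mapping fragments included, so near-identical copies can share reads, and no strand option was named. In the deposited oocyte, sorted-cell and testis tables the authors gave a ratio, fragments per kilobase per 10000 (testes: 1000) ERCC reads. The deposited stage table holds FPKM. No raw counts were used, and whole reads were derived from the steps of the spike-in values. Of 105 columns, 2 of no listed sample were not used. Gene IDs were matched to symbols of the RefSeq BCM_Maur_2.0 table, 36133 of 36133.

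Genes above 2 in 40% of the libraries compared (above 0 where fewer than 5000 passed) were tested on log2(value + 1) with limma 3.58.1 (R 4.3.3), all groups of a table sharing the spread, with Benjamini-Hochberg adjustment over all genes tested. limma was tested on simulated data. Paralog ratios were of values + 0.1 and used exact permutation tests. Named members were those called without overlap, the 3 largest in each direction, and 9 genes followed throughout (Snrpb, Snrpn, Sf3b1, U2af1, Srsf1, Srsf3, Prpf8, Lsm14a and Lsm14b) with their paralogs; others were chosen after their values were seen. Members and lists were chosen with earlier results of these data known. The WT sorted-cell libraries of consecutive stages that share a number deviated together (correlations 0.155 to 0.344 over all 4 numbers). Alternatives were a pseudocount of 0.1, no filter, rescaling, the groups alone, a replicate block, other controls, merged libraries and each library left out.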

Additional observations from a re-analysis of the deposited data

Results flagged for a closer look

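The change between ages differed between maternal Piwil3-/- and WT embryos for the members described at both ages, by limma's test of the difference itself. From 11 to 34 h it was 4.50 on the log2 scale for Lsm10 (adjusted p = 9.2e-11), 1.73 for Lsm5 (0.0035), -5.78 for Sf3b6 (2.1e-08), -5.73 for Snrpd3 (7.1e-09) and -5.62 for Snrpc (9.2e-11). From 34 to 54 h it was 5.78 for Snrpc (2.3e-09), 5.64 for Sf3b6 (2.2e-06), 4.95 for Snrpd3 (4.8e-06), -6.09 for Lsm5 (5.6e-10), -5.04 for Lsm7 (7.6e-05) and -4.38 for Lsm3 (0.0007). Both differences use the libraries at 34 h, so the opposite signs of Snrpc, Sf3b6 and Snrpd3 are not independent of each other.

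For the genes followed throughout and the members' share of all values, 8 of 110 groups of libraries held a library far from the rest. All 8 were groups of a followed gene, and chance gives about 1 in 20. Snrpn was 2.56 units in WT SPG/PL replicate 1B beside 0.915 to 1.14 in the others, and 0.230 in WT replicate 1 at 34 h beside 0 to 0.0175. U2af1 was 18.9 in Piwil1-/- D replicate 1A beside 23.7 to 24.4. Srsf1 was 77.2 in Piwil1-/- P replicate 2A beside 58.4 to 59.3, and 41.4 in WT P replicate 1B beside 63.3 to 65.6. Prpf8 was 12.4 in WT D replicate 1B beside 9.80 to 10.2. Lsm14a was 8.95 in WT LZ replicate 2A beside 12.1 to 12.4, and 71.9 in maternal Piwil3-/- replicate 2 at 11 h beside 115 to 130.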

How the results depend on the processing

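Of 113 named pairs of a member and a comparison, 84 kept call and direction under all alternatives run for them, and of 1339 alternative values 1231 kept both, 107 lost the call and 1 reversed (Prpf3 in Piwil4-/- MII oocytes, 0.44 with the other WT set). Of 419 alternative counts of called members 342 stayed within 1.5 times the reported count. On rescaled values the counts became 27 for GV to MII (from 52), 3 for MII to 11 h (11), 21 for WT 34 to 54 h (39), 27 for maternal Piwil3-/- 11 to 34 h (49), 46 for 3 d.p.p. to adult testes (26), 29 for Piwil1-/- testes (4), 1 for Piwil3-/- testes (0), 2 for Piwil1-/- P (1) and 5 for Piwil1-/- D cells (2). With a pseudocount of 0.1 they were 3 for MII to 11 h and 0 for Piwil2-/- MII, Piwil1-/- P and preleptotene. With no filter they were 6 for MII to 11 h, 0 for Piwil2-/- MII, 6 for Piwil4-/- MII (10), 2 for Piwil1-/- testes and 0 for preleptotene. With the groups fitted alone they were 7 for MII to 11 h, 3 for Piwil3-/- MII (0), 0 for genotypes at 54 h (18), 0 for Piwil2-/- MII, 1 for Piwil1-/- testes, 12 for LZ (28), 0 for Piwil1-/- P, 0 for preleptotene and 20 for zygotene cells (11). With the other WT MII set they were 13 for Piwil3-/-, 10 for Piwil2-/- and 1 for Piwil4-/-. Without the libraries titled 8PEA 4 were called for genotypes at 11 h (0). Alternatives chosen after seeing the data gave 13 for LZ without both LZ libraries numbered 1 and 24 for Piwil1-/- LZ without both numbered 2. Merging A and B gave 0 for Piwil1-/- P and 1 for D cells. The cause of these shifts was not tested.

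Leaving out 1 library gave 6 to 15 for MII to 11 h, 0 to 0 for Piwil2-/- and 6 to 8 for Piwil4-/- MII, 0 to 3 for Piwil2-/- and 0 to 2 for Piwil4-/- testes at 3 d.p.p., 1 to 3 for Piwil1-/- testes, 0 to 12 for Piwil1-/- LZ, 0 to 1 for P and 1 to 2 for D cells, 0 to 2 for preleptotene, 0 to 3 for leptotene, 0 to 8 for zygotene and 18 to 19 for pachytene cells. A lone remaining sample is then assumed to vary like the other groups.

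Among paired WT sorted cells the replicate block gave 27 for LZ (28), 45 for P (44) and 32 for D cells (33) and changed none of the named calls. Elsewhere the samples share only a number, and the block gave 0 for Piwil2-/- MII, 2 for Piwil1-/- testes and 0 for Piwil1-/- P, with no other count moved by 1.5 times. Crossed numbers gave 26 for 3 d.p.p. to adult, 0 for Piwil4-/- at 3 d.p.p. and 4 for Piwil1-/- testes.

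Values near 0 at 34 and 54 h rest on few reads, and 2 libraries a group limit the comparisons at 54 h, in testes and along the 7 stages.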
